A study of Rattus norvegicus with 6 samples.

Results

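Genes of 6 digestive enzymes that acinar cells of the pancreas secrete were described here in single-cell RNA-seq libraries from 6 male Wistar rats. They are the elastase genes Cela1 and Cela3b, the chymotrypsin genes Ctrb1 and Ctrc, and the carboxypeptidase genes Cpa1 and Cpb1, 6 of the 32883 genes in the deposited matrices, and they were chosen by name. Each was measured as a share of unique molecular identifiers (UMIs, 1 for each captured mRNA molecule) in acinar cells and in the cells of other classes. The rats formed 3 groups of 2. Young rats were taken at 2 months of age (baseline), old rats had eaten a normal diet up to 20 months of age, and HFHF-old rats had eaten a high-fat, high-fructose diet from 2 to 20 months of age, that is for 18 months. The cells came from a pancreas digested with collagenase P and enriched for islets on a density gradient, so the acinar cells are those that this islet preparation carried along. Nothing in the labels names a litter or a preparation day, each rat gave 1 library, and rats are named below by group and replicate number (young 1 to HFHF-old 2).

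Acinar cells make the digestive enzymes as inactive precursors, pack them into zymogen granules and release them into the duct on a meal. In the gut, trypsin activates the other precursors. Elastases and chymotrypsins are serine proteases that cut inside a protein chain, elastases next to small residues and chymotrypsins mainly next to large hydrophobic ones, and the carboxypeptidases then remove residues from the free carboxyl end. These mRNAs are among the most abundant in the pancreas, and when acinar cells break during digestion of the tissue their RNA can enter droplets that hold other cells.

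Acinar cells were taken as the kept barcodes in which Prss1, Prss2, Clps and Pnlip (2 trypsinogens, colipase and pancreatic lipase) together made up at least 10% of UMIs. None of the 6 genes took part in this choice. It gave 2765 acinar cells among 75201 kept cells: 356 in young 1, 558 in young 2, 732 in old 1, 394 in old 2, 668 in HFHF-old 1 and 57 in HFHF-old 2. The median acinar cell held 2662, 4494, 4199, 2096.5, 10294 and 3654 UMIs in the same order, and the summed acinar UMIs ran from 291197 in HFHF-old 2 to 13461985 in HFHF-old 1. Acinar markers outside the gate were high in these cells as a sum. Cel, Pnliprp1, Rbpjl, Ptf1a and Bhlha15 together stood at 17518 to 27459 UMIs per 1000000 (CPM) in the acinar cells of the 6 rats. In kept cells with under 2% of UMIs in the gate genes they stood at 15 to 403 CPM. The acinar sum was nearly all from the enzyme genes Cel and Pnliprp1, at 8700 and 8737 CPM in young 1. The transcription factor genes Rbpjl, Ptf1a and Bhlha15 stood at 14.8, 32.2 and 34.1 CPM there. In HFHF-old 2 these factors rested on 10, 8 and 3 UMIs. Kept cells between 2% and 10% were in neither set. The 5 beta cell markers stood at 10.3 to 9368 CPM in the acinar cells of 5 rats. This was below the 526 to 168538 CPM of the cells under 2% in the same rats. In old 1 these markers stood at 73324 CPM in the acinar cells, above the 54753 CPM of its cells under 2%. The median acinar cell of old 1 held 7156 CPM. Neutrophil markers were also higher in acinar cells than in cells under 2% in old 2 (121 against 49.4 CPM) and barely so in young 2 (1.51 against 1.47). Ductal markers were higher in the acinar cells of HFHF-old 2 (30.9 against 3.08 CPM). The remaining lists of other cell classes were lower in acinar cells in each rat. Islet hormones made up 5% of UMIs or more in 210 of the 732 acinar cells of old 1 (28.7%), 107 of young 2 (19.2%), 64 of old 2 (16.2%) and 0 to 14 of the other 3 rats, so the acinar cells of these 3 rats were not free of islet RNA. The fits below were also made without those cells, while the shares include them. Barcodes shared between 2 libraries numbered 20 to 69, at most 0.604% of the smaller one. HFHF-old 1 stood apart from the other 5 libraries in most of the values below, and HFHF-old 2 rested on 57 acinar cells, so group values of HFHF-old rats are given with each rat's own.

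The stretch of 250 bases before the transcription start is shown for 4 of the genes. Cela1 and Cela3b were picked because their ratio varied most over all 6 rats, though not without HFHF-old 1. Cpb1 was picked because it stayed close to Cela3b outside HFHF-old 1, and Ctrb1 as the most abundant of the 6. The sequences are those of RefSeq on the build GRCr8, which is not the build used for counting (Rnor_6.0), and all 6 genes had an entry. Capitals mark any of 5 motifs on either strand, which were picked with these sequences in view: CACCTG, the E-box of the acinar factor complex PTF1; TTTCCC, the second box that this complex reads; both at a spacing of 4 bases, CACCTGNNNNTTTCCC, which contains the first 2; AAGGTCA, a site of nuclear receptors such as NR5A2; and TATAAA, the TATA box.
Cela1, chr7:133665062-133665311, minus strand: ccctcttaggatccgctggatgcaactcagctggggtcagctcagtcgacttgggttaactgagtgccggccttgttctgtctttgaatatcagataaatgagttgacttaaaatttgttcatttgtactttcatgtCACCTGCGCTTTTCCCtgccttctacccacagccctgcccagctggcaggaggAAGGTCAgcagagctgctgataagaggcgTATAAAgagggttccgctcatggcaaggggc
Cela3b, chr5:154920334-154920583, minus strand: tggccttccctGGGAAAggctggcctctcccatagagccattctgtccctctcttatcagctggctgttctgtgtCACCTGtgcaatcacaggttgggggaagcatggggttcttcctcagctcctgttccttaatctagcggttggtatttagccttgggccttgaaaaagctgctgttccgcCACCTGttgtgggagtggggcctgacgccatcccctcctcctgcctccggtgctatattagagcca
Ctrb1, chr19:56566979-56567228, minus strand: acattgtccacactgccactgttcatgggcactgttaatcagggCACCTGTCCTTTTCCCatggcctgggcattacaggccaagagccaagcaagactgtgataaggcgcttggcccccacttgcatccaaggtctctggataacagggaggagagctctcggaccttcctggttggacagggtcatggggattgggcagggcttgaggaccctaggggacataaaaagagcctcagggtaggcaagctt
Cpb1, chr2:104714663-104714912, minus strand: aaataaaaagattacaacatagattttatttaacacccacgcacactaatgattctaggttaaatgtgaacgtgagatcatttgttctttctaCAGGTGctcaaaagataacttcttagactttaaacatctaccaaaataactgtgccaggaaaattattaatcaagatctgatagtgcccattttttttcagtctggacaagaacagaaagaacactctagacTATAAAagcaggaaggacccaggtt
The spaced pair was found in Cela1 (113 to 98 bases before the start) and in Ctrb1 (206 to 191 bases before it), and in 8 of 27457 promoters of the same length (0.0291%). CACCTG alone was in 4 of the 6 genes (Cela1, Cela3b, Ctrb1 and Cpb1) against 15.6% of all promoters, and TTTCCC in 3 of the 6 (Cela1, Cela3b and Ctrb1) against 22.1%. AAGGTCA was in Cela1 alone among the 6 and in 3.77% of all promoters. TATAAA was in Cela1, Ctrc and Cpb1 and in 13.1% of all promoters. A match describes letters in this window and is not a measured binding site.

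Together the 6 genes made up 18.5% of acinar UMIs in young 1, 18.5% in young 2, 16.4% in old 1, 14.0% in old 2, 31.3% in HFHF-old 1 and 16.8% in HFHF-old 2. The 2 young rats were alike, and HFHF-old 1 lay above all other rats while HFHF-old 2 lay among them. Since these libraries count the 3′ ends of mRNA, 1 UMI stands for 1 molecule whatever its length, and levels of different genes were compared as shares of UMIs without division by length. Ctrb1 was first in each of the 6 rats, at 8.78% ± 3.81 of acinar UMIs (mean and SD over 6 rats). Cela3b followed by its mean, at 3.25% ± 2.11, but lay below Cela1 in young 2 and slightly below Ctrc in both old rats, and its mean was raised by HFHF-old 1 (7.50%). The order of Cela3b and Ctrc in old 1 (1.87% and 1.89%) turned without the cells that held islet hormones (2.19% and 2.06%) and with the gate at 20% of UMIs (2.26% and 2.09%), and in the median cell Cela3b was the higher in both old rats. Cela3b lay above Cpa1 in 6 of 6 rats. Below it by mean came Cpa1 at 2.10% ± 0.727, Ctrc at 1.91% ± 0.501, Cela1 at 1.67% ± 0.500 and Cpb1 at 1.56% ± 0.582. These last 4 changed places from rat to rat: each lay above the next in 4 of 6 rats, which is within their spread. Counting error was small beside that spread: in the smallest sum, HFHF-old 2, the 4535 Cela1 UMIs gave an exact Poisson 95% interval of 15124 to 16034 CPM, which covers counting error only.

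**Figure D1:**
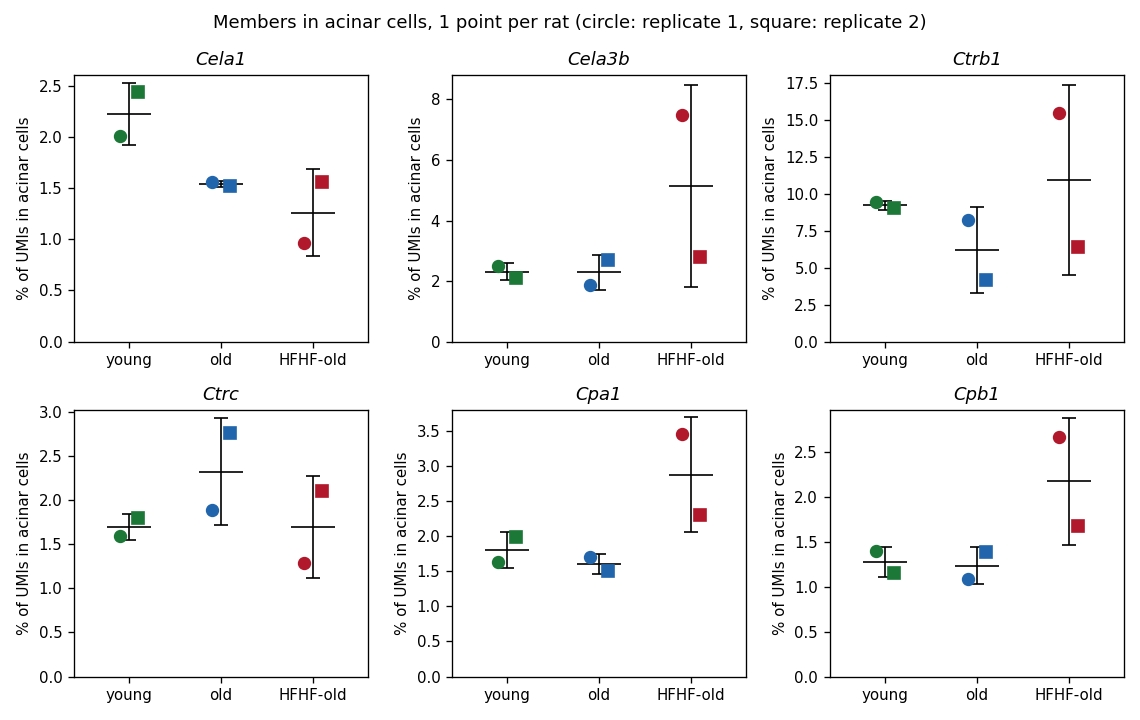
Share of each gene in acinar cells, as a percentage of all UMIs in those cells (y axes, starting at 0), by group (x axis). Circles are replicate 1 and squares replicate 2, the horizontal mark is the mean of 2 rats and the bar its SD. HFHF-old 1 is the highest point for Cela3b (7.50%), Ctrb1 (15.5%), Cpa1 (3.46%) and Cpb1 (2.67%) and the lowest for Cela1 (0.960%) and Ctrc (1.29%).

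Cela1, pancreatic elastase 1, made up 2.01% of acinar UMIs in young 1, 2.43% in young 2, 1.56% in old 1, 1.52% in old 2, 0.960% in HFHF-old 1 and 1.56% in HFHF-old 2. Both young rats lay above both old rats, and HFHF-old 2 was at the level of the 2 old rats while HFHF-old 1 was lower. Of all genes tested, 33.2% had no overlap between young and old rats on the scaled CPM used below, 14.9% lower in old. Young rats averaged 2.22% ± 0.298, old rats 1.54% ± 0.0284 and HFHF-old rats 1.26% ± 0.423 (mean and SD, n = 2 each, here and for the other genes). The low value of HFHF-old 1 depended on the denominator: as a share of the UMIs outside the listed digestive enzymes and the 6 genes themselves, Cela1 stood at 3.07 in HFHF-old 1 and 3.26 in HFHF-old 2, against 3.49 and 3.57 in the old rats and 4.85 and 5.92 in the young rats (all per 100 such UMIs). On that scale the young rats were still the highest.

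Cela3b, an elastase of the type 3 family, made up 2.50% of acinar UMIs in young 1, 2.11% in young 2, 1.87% in old 1, 2.70% in old 2, 7.50% in HFHF-old 1 and 2.79% in HFHF-old 2. Young and old rats overlapped. HFHF-old 1 held 2.69 times the share of HFHF-old 2, and without HFHF-old 1 the highest and lowest rats differed 1.49-fold. Young rats averaged 2.30% ± 0.280, old rats 2.29% ± 0.587 and HFHF-old rats 5.15% ± 3.33. Per 100 UMIs outside the listed digestive enzymes the distance of HFHF-old 1 was larger, at 24.0 against 4.18 to 6.34 in the other 5 rats, and HFHF-old 2 (5.84) lay between the young rats (6.03 and 5.13).

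Ctrb1, chymotrypsinogen B, made up 9.42% of acinar UMIs in young 1, 9.02% in young 2, 8.26% in old 1, 4.15% in old 2, 15.5% in HFHF-old 1 and 6.39% in HFHF-old 2. The 2 HFHF-old rats were farther apart than any 2 group means, which were 9.22% ± 0.284 (young), 6.20% ± 2.91 (old) and 10.9% ± 6.43 (HFHF-old). Ctrc, chymotrypsin C, which in the gut and pancreas also cuts trypsinogen and trypsin, ran the other way in these rats. It made up 1.59% in young 1, 1.80% in young 2, 1.89% in old 1, 2.75% in old 2, 1.29% in HFHF-old 1 and 2.11% in HFHF-old 2, so that old 2, lowest for Ctrb1, was highest for Ctrc, and HFHF-old 1, highest for Ctrb1, was lowest for Ctrc. Both old rats lay above both young rats for Ctrc, as for 18.3% of all genes tested on the scaled CPM used below. Young rats averaged 1.70% ± 0.147 for Ctrc, old rats 2.32% ± 0.610 and HFHF-old rats 1.70% ± 0.580. Per 100 UMIs outside the listed digestive enzymes HFHF-old 1 no longer had a low Ctrc, with 4.11 against 3.84 to 4.41 in the young rats and HFHF-old 2, and old 1 (4.22) lay between the young rats.

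Cpa1, carboxypeptidase A1, which removes aromatic and branched residues, made up 1.63% of acinar UMIs in young 1, 1.99% in young 2, 1.70% in old 1, 1.5% in old 2, 3.46% in HFHF-old 1 and 2.31% in HFHF-old 2. Cpb1, carboxypeptidase B1, which removes lysine and arginine, made up 1.39%, 1.16%, 1.09%, 1.38%, 2.67% and 1.67% in the same order. For both genes each HFHF-old rat lay above each old and each young rat, with HFHF-old 1 the farther away. Such separation was common: on the scaled CPM used below, 16.0% of all genes tested were higher without overlap against old rats. Against young rats it was 18.1%. For Cpa1, young rats averaged 1.81% ± 0.258, old rats 1.60% ± 0.143 and HFHF-old rats 2.88% ± 0.815. For Cpb1 the 3 means were 1.27% ± 0.168, 1.23% ± 0.209 and 2.17% ± 0.707. Per 100 UMIs outside the listed digestive enzymes, Cpb1 kept this order, and Cpa1 in HFHF-old 2 (4.83) was at the level of young 2 (4.85) while HFHF-old 1 stood at 11.0.

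The differences between rats were also seen cell by cell. The median acinar cell gave Cela3b 7.55% of its UMIs in HFHF-old 1 and 1.92% to 2.55% in the other rats, and in HFHF-old 1 the 5th percentile of cells, at 3.28%, lay above the 75th percentile of 4 of the 5 other rats. Cela3b exceeded Cela1 in 99.9% of acinar cells of HFHF-old 1, 82.5% of HFHF-old 2, 92.4% of old 2, 59.4% of old 1, 67.7% of young 1 and 33.9% of young 2. Ctrb1 was more than 3 times Ctrc in 98.1% of the acinar cells of HFHF-old 1, in 81.8% to 93.2% in the young rats and old 1, in 36.8% in HFHF-old 2 and in 27.7% in old 2. In old 2 the quartiles of Ctrc, 1.36% and 3.36%, were the farthest apart of the 6 rats. Each gene had at least 1 UMI in 99.55% or more of acinar cells in each rat. In HFHF-old 2 a single cell held 18.8% of the acinar UMIs of the 6 genes, against 1.9% to 4.7% in the other rats. Cells of 1 rat are not replicates, and these shares are given without a test.

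**Figure D2:**
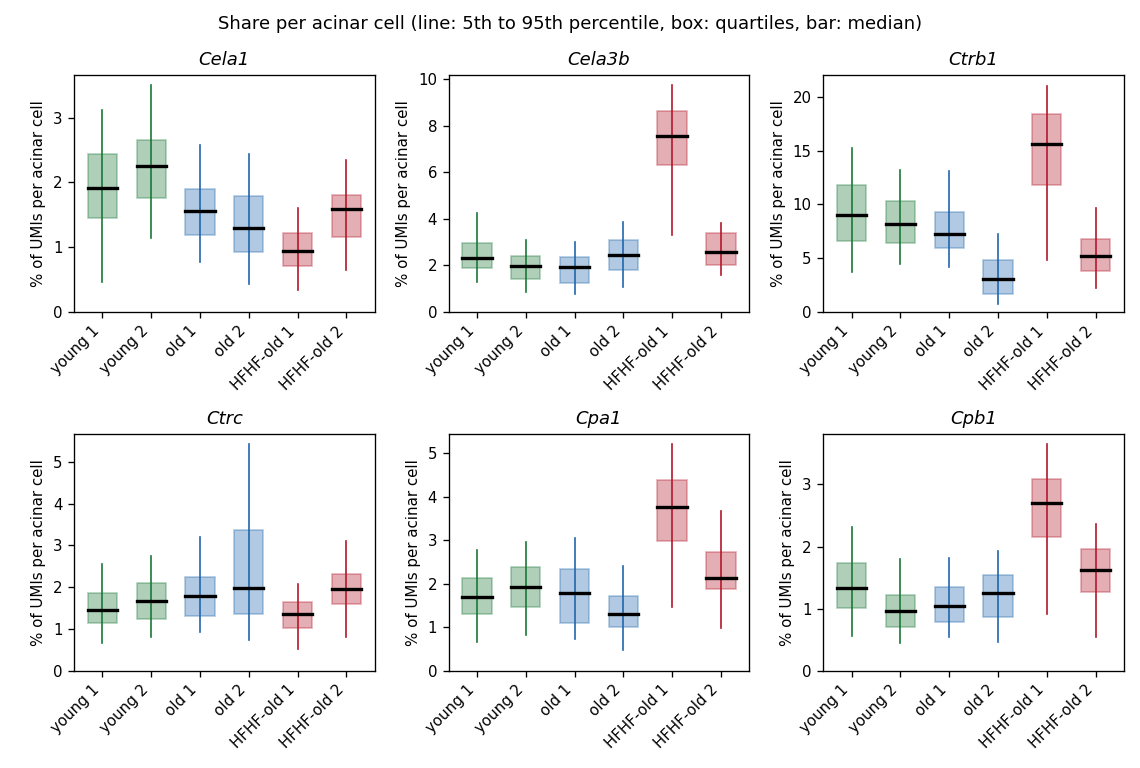
Share of each gene per acinar cell, as a percentage of the cell's UMIs (y axes, starting at 0), by rat (x axis). The bar is the median cell, the box the quartiles and the line the 5th to 95th percentile of cells. The box of HFHF-old 1 lies above all other boxes for Cela3b, with a median of 7.55%, and the box of Ctrc is widest in old 2.

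The design asks what age and the long diet change. The diet comparison set HFHF-old against old rats, the age comparison old against young rats, and the combined comparison HFHF-old against young rats. The 6 genes were tested with edgeR's quasi-likelihood test on acinar UMIs summed per rat, over all 7804 genes that passed the filter on low counts. All 6 genes passed that filter. A call needed a p under 0.05 after Benjamini-Hochberg adjustment and a change beyond 1.5-fold. No member was called in any of the 3 comparisons, and neither was any other gene (0% of the genes tested in each comparison). At an unadjusted p under 0.05 there were 644 genes in the diet comparison (8.25%), 239 in the age comparison (3.06%) and 678 in the combined one (8.69%), none of them a member. DESeq2 on the same sums called 1, 0 and 12 genes, none of them a member. The comparisons share rats, since each group stands in 2 of them.

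In the diet comparison the log2 fold changes (± SE) were 0.94 ± 0.50 for Cela3b, 0.65 ± 0.39 for Cpa1, 0.61 ± 0.40 for Cpb1 and 0.61 ± 0.51 for Ctrb1, and −0.47 ± 0.42 for Cela1 and −0.63 ± 0.44 for Ctrc, with edgeR adjusted p from 0.612 to 0.758. The direction rested on 1 rat for Ctrb1, which stood at −0.13 without HFHF-old 1, and the Cela3b value went to 0.11 without that rat and to 1.48 without HFHF-old 2. Cpa1 and Cpb1 stood at 0.35 and 0.26 without HFHF-old 1. Over all alternatives, including each rat left out, Cela1 ran from −0.96 to −0.16 and Ctrc from −1.12 to −0.32. The gate mattered as well: with the acinar gate at 20% of UMIs in place of 10%, Cpa1 stood at 0.19, Cpb1 at 0.18, Ctrb1 at 0.29, Cela3b at 0.56, Cela1 at −0.96 and Ctrc at −1.12. Without the acinar cells that held hormones at 5% of UMIs or more, Cpa1 stood at 0.40. On CPM scaled by edgeR's TMM factors, the 2 HFHF-old rats did not overlap with the 2 old rats for Cpa1 and Cpb1 (higher) and for Cela1 (lower), 3 of the 6 genes, while 40.2% of all genes tested were without overlap in this comparison, 16.0% higher and 24.2% lower. As plain shares of UMIs, Cpa1 and Cpb1 did not overlap either, but Cela1 in HFHF-old 2 lay between the 2 old rats, and Cela3b, which overlapped on the scaled values, was higher in both HFHF-old rats than in both old rats, by little in HFHF-old 2 (2.79% against 2.70% in old 2).

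In the age comparison the log2 fold changes were 0.64 ± 0.44 for Ctrc, −0.35 ± 0.42 for Cela1, −0.39 ± 0.51 for Ctrb1, 0.18 ± 0.49 for Cela3b, 0.15 ± 0.40 for Cpb1 and 0.00 ± 0.39 for Cpa1, with an edgeR adjusted p of 1.00 for each. Scaled by total UMIs without a further factor, Cela3b, Cpb1 and Cpa1 stood at −0.01, −0.05 and −0.18 in this comparison, and without old 2 Cela3b and Cpb1 stood at −0.18 and −0.11. The Ctrb1 value rested on old 2, at −0.04 without it and −0.96 without old 1. Over all alternatives, including each rat left out, Ctrc ran from 0.27 to 0.90 and Cela1 from −0.57 to −0.06. With the gate at 5% of UMIs, Cela1 stood at −0.06. On the TMM-scaled CPM the rats did not overlap for Cela1 (lower in old) and Ctrc (higher in old), 2 of the 6 genes, against 33.2% of all genes tested (18.3% higher and 14.9% lower). As plain shares, Ctrb1 was also lower in both old rats than in both young rats. In the combined comparison the values were 1.13 ± 0.50 for Cela3b, 0.75 ± 0.40 for Cpb1, 0.65 ± 0.39 for Cpa1, 0.21 ± 0.51 for Ctrb1, 0.01 ± 0.44 for Ctrc and −0.82 ± 0.42 for Cela1, with edgeR adjusted p from 0.571 to 1.00. Without HFHF-old 1, Ctrb1 stood at −0.52 and Cela3b at 0.29, and without HFHF-old 2 Ctrc stood at −0.49. Over all alternatives, including each rat left out, Cpa1 ran from 0.35 to 0.89, Cpb1 from 0.40 to 1.03 and Cela1 from −1.30 to −0.51. With the gate at 20%, Cpa1 stood at 0.36, Cpb1 at 0.48, Ctrb1 at 0.01 and Ctrc at −0.34. Here, on both scales, the rats did not overlap for Cela3b, Cpa1 and Cpb1 (higher in HFHF-old) and Cela1 (lower), 4 of the 6 genes, against 42.8% of all genes tested (18.1% higher and 24.7% lower). The smallest p of an exact permutation test of 2 rats against 2 is 0.333, so shares of single genes carry no test of their own.

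**Figure D3:**
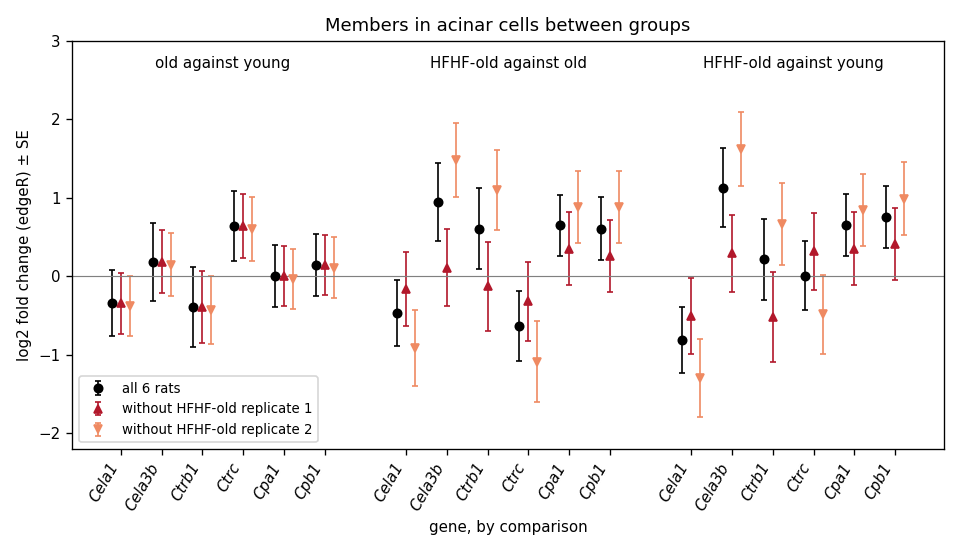
Log2 fold changes of the 6 genes in acinar cells from edgeR (y axis, bars are ± SE worked back from the test), by comparison and gene (x axis). Black circles use all 6 rats, and triangles leave out 1 of the HFHF-old rats. Cela3b in the diet comparison (HFHF-old against old) stands at 0.94 with all rats, 0.11 without HFHF-old 1 and 1.48 without HFHF-old 2.

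Ratios between the genes do not depend on the denominator. The ratio of Cela1 to Cela3b was 0.804 in young 1, 1.16 in young 2, 0.834 in old 1, 0.563 in old 2, 0.128 in HFHF-old 1 and 0.558 in HFHF-old 2. It was the most variable of the 15 pairs, with a 9.03-fold range over the 6 rats and a 2.07-fold range without HFHF-old 1. The ratio of Ctrb1 to Ctrc was 5.91 in young 1, 5.01 in young 2, 4.37 in old 1, 1.51 in old 2, 12.0 in HFHF-old 1 and 3.03 in HFHF-old 2. Its range was 7.99-fold, and 3.93-fold without HFHF-old 1, then set by old 2. Cpa1 to Cpb1 was the steadiest pair, at 1.17, 1.73, 1.57, 1.09, 1.29 and 1.38 in the same order of rats, a 1.59-fold range. Cela3b to Cpb1 stayed between 1.67 and 1.96 in 5 rats, a 1.17-fold range, and was 2.81 in HFHF-old 1. HFHF-old 1 lay outside the other 5 rats in 10 of the 15 pairs. Old 2 did so in as many, among them the lowest Ctrb1 to Ctrc and Cpa1 to Cpb1 and the highest Cela3b to Ctrb1 (0.652). The 15 pairs are built from the same 6 genes and are not independent. HFHF-old minus old, the log2 ratio of Cela3b to Cela1 differed by 1.36 with all rats and by 0.30 without HFHF-old 1, beside a pooled SD between rats of 1.10. The log2 ratio of Ctrb1 to Ctrc differed by 1.24 in that comparison and by −1.09 in the age comparison, beside pooled SDs of 1.26 and 0.777. Without old 2 these 2 differences were 0.47 and −0.32, and without HFHF-old 1 the first was 0.24.

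**Figure D4:**
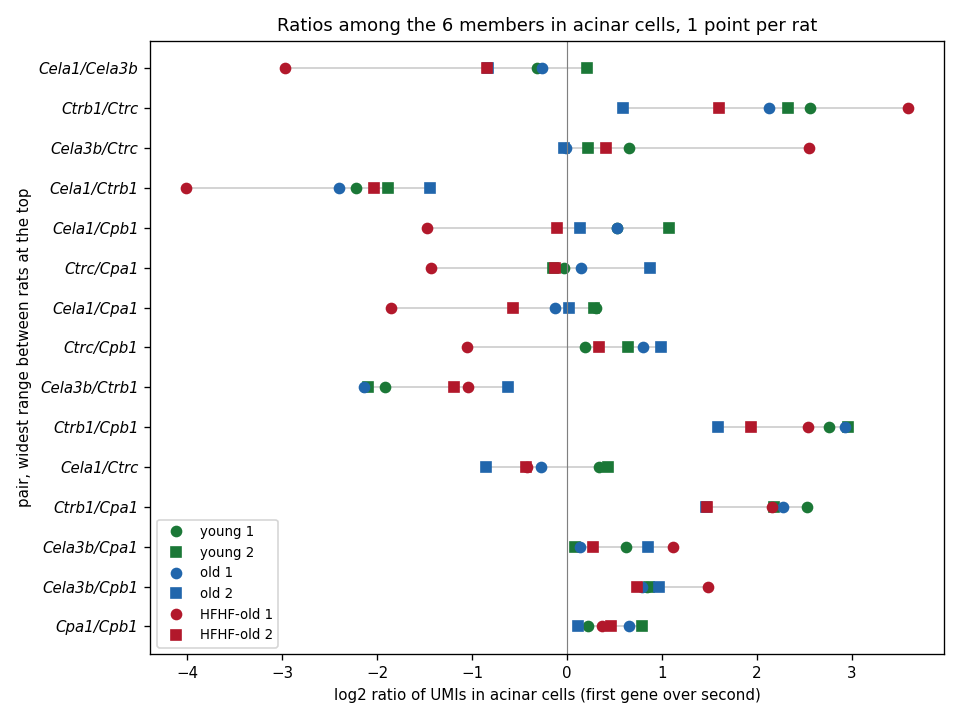
Log2 ratios of UMIs in acinar cells for the 15 pairs among the 6 genes (y axis, ordered by the range over rats), 1 point per rat; 0 on the x axis means equal levels. HFHF-old 1 lies far from the other rats for Cela1/Cela3b (−2.97 against −0.84 to 0.21), and all rats lie close together for Cpa1/Cpb1 (0.12 to 0.79).

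Beside the 6 genes, 30 other acinar genes were listed, of which 27 were in the matrices and 25 passed the filter on low counts. These 25 include the 4 gate genes, whose levels were used to choose the acinar cells. By edgeR, 0 of the 25 were called in any comparison. An unadjusted p under 0.05 was found for 3, 1 and 3 of them in the diet, age and combined comparisons. Over all genes tested the shares were 8.25%, 3.06% and 8.69%. The 1 gene in the age comparison was the gate gene Pnlip. The median log2 fold change of the 25 was −0.17, −0.01 and 0.00, beside −0.06, 0.06 and −0.03 over all 7804 genes. Among relatives of the 6 genes, the elastase Cela2a made up 3.38% and 4.15% of acinar UMIs in the young, 4.56% and 5.37% in the old and 2.75% and 4.29% in the HFHF-old rats. The chymotrypsin-like gene Ctrl stood at 1.18% to 1.32% in 5 rats and at 0.452% in HFHF-old 1. Both relatives thus had their lowest share in HFHF-old 1, the rat with the highest shares of Cela3b, Ctrb1 and Cpa1. These shares depend on the denominator. As a share of the UMIs outside the listed digestive enzymes and the 6 genes, Cela2a was not lowest in HFHF-old 1 but lower in young 1. The listed digestive enzymes and the 6 genes made up 68.7% of acinar UMIs in HFHF-old 1 and 52.2% to 58.9% in the other 5 rats. Of the gate genes, Prss1 made up 9.80% to 11.7% in the young and old rats, 17.3% in HFHF-old 1 and 5.50% in HFHF-old 2, and Clps made up 3.13% in HFHF-old 1 and 7.11% to 9.48% in the other 5 rats. Prss2 ran from 0.10% in HFHF-old 2 to 0.833% in HFHF-old 1. Pnlip was 2.79% and 2.13% in the young, 4.69% and 4.48% in the old and 3.70% and 4.44% in the HFHF-old rats. The listed inhibitors lay below each of the 6 genes in each rat. Spink1, the trypsin inhibitor of the zymogen granule, ran from 0.122% to 0.207%, and the serpin Serpini2 stood at 0.0706% and 0.0697% in the young rats and at 0.0393% to 0.0467% in the other 4. For Serpini2 the young rats did not overlap with the others, and its edgeR adjusted p was 1.00 in the age and 0.603 in the combined comparison.

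Among the genes whose pattern over cell classes was most like that of the 6 genes together were the acinar genes Cel, Gp2, Pnliprp1 and Zg16. Over 47 sums of rat and class, and among 11506 genes, the Pearson correlation of log2(CPM + 1) was 0.994 for Cel, 0.986 for Gp2, 0.983 for Pnliprp1 and 0.983 for Zg16. Sums of 1 rat share a library and its free RNA, so these values are a description.

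UMIs of the 6 genes were found in the cells of each other class with enough cells to sum. Those classes were set by markers, and cells with 2% or more of UMIs in the 4 gate genes were left out of them. Of all UMIs of the 6 genes in kept cells, 68.9% lay in acinar cells in young 1, 47.1% in young 2, 82.1% in old 1, 80.3% in old 2, 84.0% in HFHF-old 1 and 57.6% in HFHF-old 2. In T and NK cells, which should not express them, the 6 genes together stood at 790 CPM in young 1, 1620 in young 2, 1429 in old 1, 669 in old 2, 5895 in HFHF-old 1 and 92.9 in HFHF-old 2. Macrophages held 1685, 3107, 1582, 786, 5781 and 156 CPM in the same order, and fibroblasts 747, 1466, 1352, 611, 4080 and 112 CPM. The order of the rats was thus HFHF-old 1 first and HFHF-old 2 last in all 3 classes, and the 2 HFHF-old rats differed by more than the other 4 rats among themselves. Acinar cells held 53.2 to 2056 times the level of the other classes. The smallest distance was in HFHF-old 1 and the largest in HFHF-old 2, in its 49 B cells. The place of the smallest distance rested on the 2% limit. With cells of up to 10% let in, it was 11.0-fold, in the beta cells of young 2 (16799 CPM). Macrophages then stood 28.8-fold below acinar cells in young 2 and 33.1-fold in HFHF-old 1. The largest distance stayed in the B cells of HFHF-old 2. HFHF-old 1 was still first and HFHF-old 2 last in T and NK cells (5913 and 352 CPM), macrophages (9476 and 156) and fibroblasts (4657 and 183). Under the 2% limit, beta cells held 179 CPM in young 1, 2838 in young 2, 803 in old 1, 155 in old 2 and 1548 in HFHF-old 1. The T and NK level of HFHF-old 1, 0.590% of UMIs, stood apart from the 0.00929% to 0.162% of the other 5 rats. In young 2 the beta cells (0.284%) held more than the T and NK cells of that rat (0.162%).

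The make-up of these UMIs followed the acinar cells of the same rat in most cases. Cela3b made up 23.9% of the UMIs of the 6 genes in the acinar cells of HFHF-old 1 and Cela1 3.1%. In its macrophages they made up 23.4% and 3.0%, in T and NK cells 21.3% and 3.1%, in fibroblasts 20.5% and 3.1% and in beta cells 23.1% and 3.4%. In old 2, where Ctrb1 was 29.6% of the 6 in acinar cells, it was 32.7% in macrophages, 35.1% in T and NK cells, 34.3% in fibroblasts and 30.3% in beta cells, while in old 1 Ctrb1 made up 50.4% in acinar cells and 47.3% to 51.5% in the same 4 classes. The 6 parts were taken as a profile, with the sum of absolute differences divided by 2 as the distance. The nearest acinar profile was that of the same rat in 31 of 41 pairs of class and rat. For T and NK cells, macrophages and fibroblasts it was so in 14 of 18 pairs. Some of these were near ties: T and NK cells of old 1 lay 2.85 points from their own rat and 2.86 from the nearest other rat. These classes are free of acinar cells only as far as the markers and the 2% limit say, and whether their UMIs came from free RNA or from droplets with 2 cells was not tested.

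**Figure D5:**
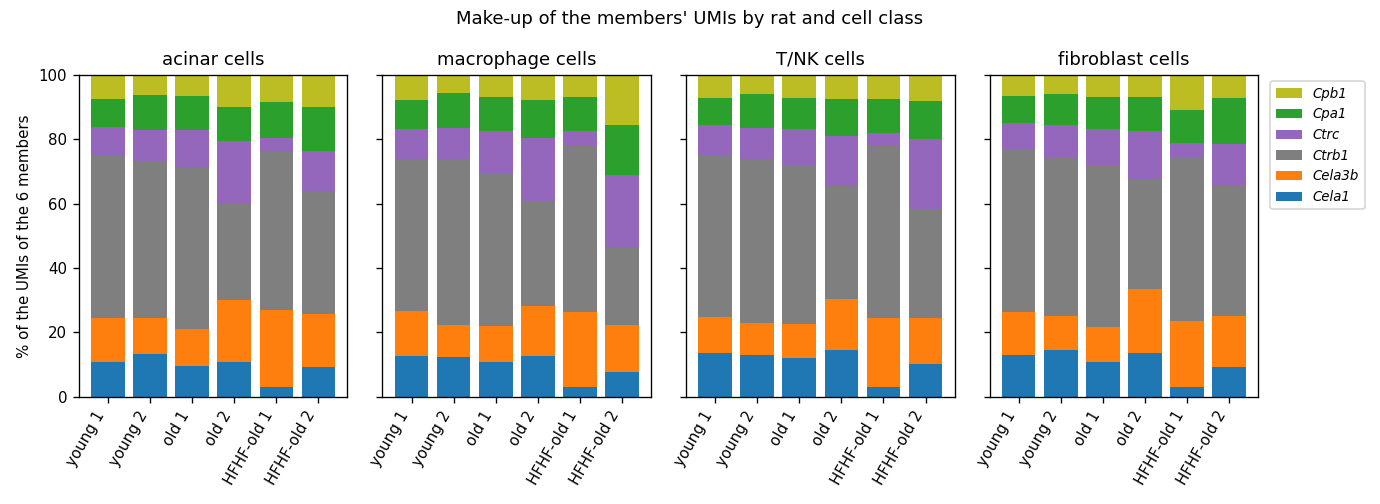
Make-up of the UMIs of the 6 genes (y axis, percent of their sum) in acinar cells, macrophages, T and NK cells and fibroblasts, 1 stacked bar per rat (x axis). The thin Cela1 and thick Cela3b layers of HFHF-old 1 (3.1% and 23.9% in acinar cells) and the small Ctrb1 layer of old 2 (29.6%) return in the other 3 classes, and the HFHF-old 2 bars differ between classes.

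In some classes the parts were unlike those of the rat's own acinar cells. In HFHF-old 2, Ctrc made up 12.5% of the 6 genes in acinar cells, where 1 cell held 18.8% of their UMIs, and it made up 21.7% in T and NK cells and 22.2% in macrophages. The T and NK value rested on 8256 UMIs of the 6 genes in 9356 cells, less than 1 UMI a cell. The richest of these cells held 3.1% of them. The macrophage value rested on only 70 cells, in which the 6 genes stood at 156 CPM of 575633 UMIs. The richest of these macrophages held 12.2% of the UMIs of the 6 genes. When cells with up to 10% of UMIs in the gate genes were let in, 19 more T and NK cells raised the UMIs of the 6 genes to 31313, of which 1 cell held 46.4%, and Ctrc went to 10.7%. In cells with ductal markers, Cela1 made up 17.3% of the 6 genes in young 1, 17.5% in young 2, 17.4% in old 1 and 22.3% in old 2, against 10.8%, 13.1%, 9.5% and 10.9% in the acinar cells of these rats. The difference of 4.3 to 11.4 percentage points was in the same direction in 4 of 4 rats, and Cpa1 was also higher in ductal cells in 4 of 4 rats, by 1.8 to 4.1 points. These values rested on 271 to 893 UMIs a rat and on 25, 28, 46 and 233 cells, and the richest ductal cell held 26.6% of the UMIs of the 6 genes in young 1, 10.5% in young 2, 5.14% in old 1 and 3.25% in old 2. A higher Cela1 part was not particular to ductal cells, where it averaged 7.53 ± 2.97 points over acinar cells (mean and SD over rats). It was 7.93 ± 2.45 points higher in B cells (2 of 2 rats), 2.63 ± 1.81 in alpha cells (4 of 4) and 0.938 ± 0.830 in smooth muscle cells (3 of 3). The B cell value rested on few UMIs. In young 1 there were 28 B cells, with the 6 genes at 647 CPM of 208517 UMIs. In HFHF-old 2 there were 49, with the 6 genes at 81.8 CPM of 452417 UMIs. The richest B cell held 15.6% and 16.2% of the UMIs of the 6 genes in these 2 rats. Endothelial cells (4 of 5 rats), beta cells (4 of 5), T and NK cells (5 of 6) and fibroblasts (5 of 6) had mean differences of 2.17 ± 2.56, 1.35 ± 2.05, 1.57 ± 1.58 and 1.24 ± 1.14 points, and macrophages one of 0.429 ± 1.47 (3 of 6).

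The limit of the acinar gate met few cells in most rats and many in 2 of them. Between 5% and 8% of UMIs in the gate genes there were 492 cells in young 2 (median 1699 UMIs) and 611 in HFHF-old 1 (median 619 UMIs), against 9 to 106 in the other 4. Just outside the gate, at 8% to 10%, HFHF-old 1 had 101 cells in which the 6 genes made up 13.0% of UMIs, Cela3b 23.1% of them and Cela1 3.2%. Just inside it, at 10% to 12%, 40 cells held 15.1%, 23.1% and 3.0%. In young 2 the same bands held 104 and 58 cells, with Cela3b at 10.5% and 10.6% and Cela1 at 12.8% and 13.5%. The parts of these 2 genes were thus close on both sides of the limit in these 2 rats. In 3 other rats parts shifted across the limit. In old 2, between 29 cells just outside and 38 just inside, Ctrb1 went from 32.0% to 40.8%, Ctrc from 17.5% to 12.2% and Cela1 from 10.5% to 7.0%. In young 1, Cela3b went from 14.7% in 16 cells to 20.2% in 8 cells and Ctrb1 from 55.6% to 49.96%. In HFHF-old 2, Cela1 went from 10.9% in 4 cells to 6.70% in 2 cells and Ctrb1 from 35.2% to 45.6%. In that rat the 6 genes made up 20.3% of UMIs in 9 cells at 5% to 8% and 8.62% in 2 cells just inside the limit.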

How the data were processed

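The deposited files are 10x Genomics count matrices, 1 for each of 6 rats, with whole UMI counts per gene and barcode that the authors made from Chromium 3′ v3.1 libraries with Cell Ranger (5.0.0 per the file headers, while the methods name a later version) on Rnor_6.0 per the labels. Of 78024 barcodes, 75201 were kept (200 or more genes, at most 25% mitochondrial UMIs, not in the top 1% of gene number). The libraries held 77387928 to 166875258 UMIs. No doublet caller was run.

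Other classes needed 3 or more markers of 1 list and at most 1 of any other (beta and alpha cells: 20% or more of UMIs in insulin or Gcg) and 20 or more cells. Dendritic, PP, delta and mesothelial cells were not summed. Marker genes absent from the matrices (4) were not used. Acinar counts were summed per rat and tested with edgeR 4.0.16 (TMM, filterByExpr, quasi-likelihood) in 1 fit of 3 groups in R 4.3.3, with DESeq2 1.42.0 as an alternative. The fit was also run on simulated counts with the same spread for all genes. This does not show how the fit performs at the spread of these rats. The 6 genes and all lists were chosen with earlier results of these data known. Named are the 6 genes, 2 inhibitors, Ctrl, Cela2a, the 4 gate genes and 4 of the 5 genes most like the 6; 1 gene is not reported here.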

Additional observations from a re-analysis of the deposited data

How the results depend on the processing

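None of the 6 genes was called in any of the 3 comparisons under any alternative, including each rat left out, and the lowest adjusted p was 0.295. Counts over all genes were less steady. The diet, age and combined comparisons gave 9, 4 and 10 calls with the gate at 20% of UMIs, 161, 60 and 188 without a filter on low counts, and 0 to 8, 0 to 7 and 0 to 9 with 1 rat left out, the highest without old 2, old 1 and HFHF-old 1 in turn. DESeq2 gave 1 call in the diet and 12 in the combined comparison. The deviations of the replicate 1 rats from their group means had correlations of 0.045, 0.090 and 0.251 between groups. With 2 rats a group, these cannot show whether the replicate numbers pair the rats. The replicate block gave 1, 1 and 0 calls. Where a rat was left out, the lone rat of its group was assumed to vary like the other groups. Which choice moved these counts, beyond the number of genes and rats in the fit, was not tested.

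Of 288 log2 fold changes of the 6 genes under alternatives, 25 had the opposite sign of the value reported. In the age comparison, Cpa1 stood at −0.0251 with DESeq2 and with its size factors, −0.177 with total UMIs, −0.0552 without a filter, −0.00522 with the replicate block, −0.000795 with the top 1% of cells kept, and −0.23 to 0.22 with 1 rat left out. Cela3b and Cpb1 stood at −0.0101 and −0.0462 with total UMIs, and ran from −0.18 to 0.43 and from −0.11 to 0.31 with 1 rat left out. In the combined comparison, Ctrc stood at −0.34 with the gate at 20%, −0.00154 with total UMIs, −0.107 without a filter, −0.108 with hormone-poor cells alone, −0.0495 with the replicate block and −0.0162 with the top 1% kept, and ran from −0.49 to 0.32 with 1 rat left out. Ctrb1 ran from −0.52 to 0.66 in that comparison and from −0.13 to 1.15 in the diet comparison. Scaling by total UMIs put the median over all genes at 0.17 in the diet and at −0.12 in the age comparison, and leaving out HFHF-old 1 put it at −0.34 in the diet comparison.

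With 1 rat left out, the log2 ratio of Cela3b to Cela1 ran from 0.30 to 2.42 in the diet, from 0.21 to 0.78 in the age and from 0.79 to 2.91 in the combined comparison. That of Ctrb1 to Ctrc ran from 0.24 to 2.23, from −1.85 to −0.32 and from −0.84 to 1.15, and that of Cpa1 to Cpb1 from −0.23 to 0.30, from −0.40 to 0.16 and from −0.37 to 0.19. Letting in cells with up to 10% of UMIs in the gate genes gave 32 of 41 pairs of class and rat nearest to their own acinar profile. The alternatives on cells with at least 1000 UMIs and on the 10% limit were chosen after seeing the data. The 57 acinar cells of HFHF-old 2 and 2 rats a group limit the precision.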
